A study of Mus musculus with 6 samples.

Results

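A set of 5 genes carries out the activation, breakdown and sensing of vitamin D: Cyp2r1, Cyp27a1, Cyp27b1, Cyp24a1 and Vdr. Their open chromatin was followed in microdissected kidney tubules of the mouse after a sham operation and after removal of 1 kidney. An open region was counted for a gene when the summit of a peak, its point of strongest signal, lay in the gene body or within 20 kb of it. By this rule 59 of 99359 open regions belonged to the 5 genes: 24 to Vdr, 12 to Cyp27b1, 10 to Cyp24a1, 9 to Cyp27a1 and 4 to Cyp2r1.

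The assay was ATAC-seq (assay for transposase-accessible chromatin with sequencing), in which a transposase inserts adapters into accessible DNA. The mice were wild-type (WT) C57BL/6 males, 7 weeks old, fed normal chow and housed singly. The kidney tissue was taken 24 h after sham surgery (Sham) or after unilateral nephrectomy (UNx), the surgical removal of 1 kidney. Each group had 3 libraries, and each library was made from 3 hand-dissected tubules of the S1 segment, the first stretch of the proximal tubule after the glomerulus. The labels do not say whether the libraries came from separate mice, so p-values measure only the spread between these libraries, which may be technical. A library sums all cells of its tubules, so more cells with an open region and wider opening in each cell cannot be told apart.

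Vitamin D is first hydroxylated at carbon 25, mainly in the liver, where Cyp2r1 is the principal 25-hydroxylase and the mitochondrial enzyme Cyp27a1 has the same activity. The proximal tubule then takes up 25-hydroxyvitamin D bound to its carrier protein, and Cyp27b1, the 1α-hydroxylase, makes the active hormone calcitriol from it. Cyp24a1, the 24-hydroxylase, breaks both forms down, and Vdr, the nuclear receptor for calcitriol, binds DNA together with a retinoid X receptor and induces Cyp24a1.

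The stretches of DNA on which the comparisons turn are shown first, in the build GRCm38. Of these, 4 are 200 bp windows centred on the strongest summit of a region, read on the plus strand: the region just past the 3′ end of Cyp24a1 (chr2:170482220-170482419), 2 regions at Vdr (chr15:97905388-97905587 and chr15:97918059-97918258) and the highest-ranked region of the Cyp27b1 window (chr10:127043326-127043525). The other is the promoter of Cyp2r1, the 250 bases before its start on the minus strand (chr7:114562973-114563222), taken from RefSeq. RefSeq promoter sequences were matched for 4 of the 5 genes, Cyp2r1, Cyp27a1, Cyp27b1 and Vdr. Capitals mark half-sites of nuclear receptors (AGGTCA, also with G as its first base or T as the third, on either strand).
Cyp24a1, 3′ region: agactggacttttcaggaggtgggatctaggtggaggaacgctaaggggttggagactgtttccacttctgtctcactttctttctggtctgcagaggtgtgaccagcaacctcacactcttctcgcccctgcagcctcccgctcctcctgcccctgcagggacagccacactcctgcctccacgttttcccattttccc
Cyp2r1, promoter: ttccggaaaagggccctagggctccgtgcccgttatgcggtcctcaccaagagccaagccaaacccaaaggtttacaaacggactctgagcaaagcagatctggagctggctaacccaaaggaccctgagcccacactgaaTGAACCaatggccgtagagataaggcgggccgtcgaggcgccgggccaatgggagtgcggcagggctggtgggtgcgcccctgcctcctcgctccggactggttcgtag
Vdr, intronic region: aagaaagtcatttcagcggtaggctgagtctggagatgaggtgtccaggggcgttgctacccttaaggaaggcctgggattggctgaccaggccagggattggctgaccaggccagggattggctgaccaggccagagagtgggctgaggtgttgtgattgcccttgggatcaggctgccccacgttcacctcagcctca
Vdr, upstream region: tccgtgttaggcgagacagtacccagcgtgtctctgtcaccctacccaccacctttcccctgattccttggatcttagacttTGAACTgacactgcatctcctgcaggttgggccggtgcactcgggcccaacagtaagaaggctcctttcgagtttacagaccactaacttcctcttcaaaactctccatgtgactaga
Cyp27b1, highest-ranked region: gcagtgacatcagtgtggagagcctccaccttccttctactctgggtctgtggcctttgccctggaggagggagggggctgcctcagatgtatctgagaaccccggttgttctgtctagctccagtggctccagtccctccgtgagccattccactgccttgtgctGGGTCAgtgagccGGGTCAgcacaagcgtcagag

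The Cyp24a1 sequence holds no half-site, the Cyp2r1 promoter and the upstream Vdr region hold 1 each, and the Cyp27b1 sequence holds 2, both GGGTCA and separated by 7 bases. The intronic Vdr sequence has none, and it contains a stretch of 21 bases that occurs 3 times in tandem, with neighbouring copies sharing 1 base. A half-site lay within 100 bp of the summit in 23 of the 59 regions (39.0%) and in 46.3% of all 99359 regions. For the paired element of the vitamin D receptor, only an exact direct repeat of such half-sites spaced by 3 bases was searched. It matched 0 of the 59 regions and 0.103% of all regions. Elements with other letters in a half-site would be missed, so the count does not show that the regions lack them. The cyclic AMP response element TGACGTCA matched 0 of 59 regions (0.581% of all), the HNF1 string GTTAATNAT matched 0 (2.83% of all) and the HNF4 string CAAAGTCCA matched 1, an intronic Vdr region 50.1 kb from the 5′ end (2.27% of all). These matches describe letters in the windows and say nothing of binding.

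Each library's list was reduced to its 77355 strongest peaks, and the strength of a region is given as its percentile rank in that list, near 100 for the strongest peaks and 0 where the region was not among them. Of the 59 regions, 35 were present in all 6 lists (59.3%, against 53.4% of all regions). The windows of the 5 genes held 52, 53 and 53 peaks in the Sham lists and 53, 52 and 48 in the UNx lists. The means were 52.7 ± 0.577 (SD, n = 3) and 51.0 ± 2.65 (SD, n = 3), a difference of -1.67 peaks that was within the spread (exact permutation test, two-sided, p = 0.7, with 0.1 the smallest possible). None of the regions (0 of 59) was in all 3 Sham lists and no UNx list, or the reverse, against 1.98% of all regions.

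The 47 regions present in at least 3 lists were tested for a change in rank with limma, a linear model with variance shared across all regions, with Benjamini-Hochberg adjustment over all 74781 tested regions. Past an adjusted p of 0.05, 2 of the 47 ranked higher after UNx, 1 at Cyp24a1 and 1 at Cyp2r1, and 0 ranked lower. Over all tested regions 0.788% passed (0.435% higher and 0.353% lower). At an unadjusted p under 0.05 there were 7 of 47, all higher, against 18.6% of all tested regions. The ranks of the 2 operations did not overlap in 10 of the 47, with UNx above Sham in 9 and below it in 1, against 23.7% of all tested regions (12.0% above and 11.7% below). The mean rank was higher after UNx in 31 of 47 regions and lower in 16, with a median difference of 2.48 percentile points against -0.0112 over all tested regions.

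**Figure D1:**
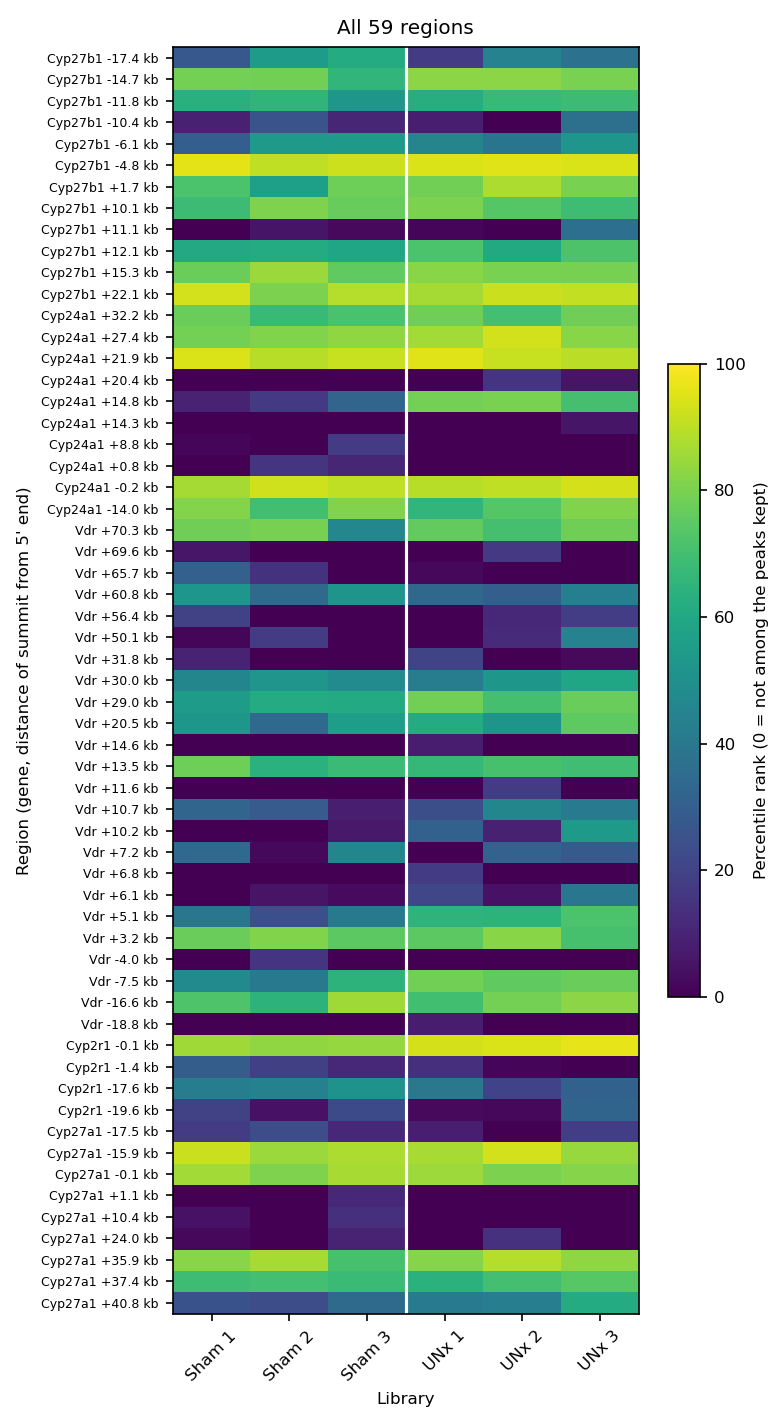
Percentile rank (colour, 0 to 100) of all 59 regions (rows, by gene and distance of the summit from the gene's 5′ end) in the 3 Sham and 3 UNx libraries (columns). Rows that are dark on the left and bright on the right include the Cyp24a1 region 14.8 kb from the 5′ end. Many of the brightest rows, at promoters and a few distal sites, look alike on both sides. The Cyp2r1 promoter is a bright row that was called, at 83.5 to 85.9 in Sham and 93.5 to 96.2 in UNx.

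The promoter of Cyp2r1, the gene of the liver's principal 25-hydroxylase, was 1 of the 2 called regions and ranked higher after UNx. The gene (ENSMUSG00000030670.16, chr7:114549682-114562972, minus strand) had no region with its strongest summit in its body or downstream of it. The strongest summits of all 4 regions lay before its start, and the promoter region runs from there into the gene. The promoter region (chr7:114562459-114563398) has its summit 64 bp from the annotated start, within the sequence printed above. Its percentile rank was 85.9, 83.5 and 84.3 in Sham 1, 2 and 3, and 93.5, 94.1 and 96.2 in UNx 1, 2 and 3. All UNx libraries ranked it above every Sham library, with little spread inside either operation. In the full deposited lists it held places 10910, 12795 and 12167 in Sham and 5056, 4533 and 2955 in UNx. The authors' fold enrichment at its summit ran from 10.4 to 13.1 in Sham and from 14.2 to 16.8 in UNx. The mean rose from 84.5 ± 1.24 to 94.6 ± 1.41 (SD, n = 3 each), a difference of 10.05 percentile points (SE 2.14, limma adjusted p = 0.0393). This call passed the threshold in 2 of 18 alternative settings, with adjusted p-values from 0.0289 to 0.307, and it was lost when any 1 library was left out (0.0601 to 0.114, highest without UNx 1). The difference was above 0 in all 18.

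The 3 other Cyp2r1 regions were weaker, and none passed the test. The region 17.6 kb upstream had ranks of 42.1, 44.0 and 51.4 in Sham and 39.6, 20.1 and 31.2 in UNx. It was the only tested region of the 5 genes in which every UNx library lay below every Sham library (difference -15.55, SE 9.72, limma adjusted p = 0.407; with all deposited peaks -8.27). The region 1.4 kb upstream differed by -14.71 (adjusted p = 0.398) and the one 19.6 kb upstream by -3.27 (adjusted p = 0.901). The latter is the region nearest to the inner edge of the 20 kb limit among all 5 genes, with mean ranks of 15.5 and 12.2. The nearest region beyond the limit lies 20.4 kb from Cyp2r1 and had means of 26.1 in Sham and 25.0 in UNx.

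Cyp27a1, the mitochondrial 25-hydroxylase that also acts in bile acid synthesis, showed no region past the threshold. The gene (ENSMUSG00000026170.6, chr1:74713574-74737892, plus strand) had 9 regions, of which 7 were tested. Its promoter region (chr1:74712789-74714259, summit 50 bp before the gene's 5′ end) ranked 86.3, 80.6 and 86.8 in Sham and 85.2, 80.3 and 81.7 in UNx. The operations overlapped, and the difference of -2.16 (SE 3.17, limma adjusted p = 0.762) was smaller than its error. The strongest region of the window lies 15.9 kb upstream, in a coding exon of the neighbouring gene Ttll4, with means of 88.2 in both operations (difference -0.03, SE 2.71).

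Downstream of Cyp27a1 the regions 35.9 and 37.4 kb from its 5′ end, the first of them at the promoter of Prkag3, differed by 4.65 and 0.41 points, the first by 0.1463 without Sham 3. The region 40.8 kb from the 5′ end, 5120 bp from the Prkag3 start, had ranks of 25.4, 23.7 and 34.5 in Sham and 41.1, 43.0 and 61.6 in UNx. All UNx libraries were above all Sham libraries there, by 20.7 points on average (SE 9.87), but the limma adjusted p was 0.270. Only 3 regions had their strongest summit inside the gene body, with mean ranks of at most 6.14 in either operation.

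Cyp27b1, the 1α-hydroxylase and the step that the kidney contributes to the hormone, had a deposited summit within 1 kb of its start in every library, but its region was ranked mostly by a summit further inside the gene. The gene (ENSMUSG00000006724.12, chr10:127048250-127053006, plus strand) is 4757 bp long and lies among Cdk4, Eef1akmt3, March9, Mettl1, Tsfm and Tspan31, so 11 of the 12 regions in its window lie outside its body and many sit in or near these neighbours. The 1 region assigned to its promoter (chr10:127047992-127050369) runs from before the start into the gene, with 5 to 8 deposited summits in a list. Its rank was 71.5, 56.3 and 77.9 in Sham and 78.6, 87.7 and 79.8 in UNx. The lowest UNx library was just above the highest Sham library, and Sham 2 was well below the other 2 Sham libraries. The mean was 68.6 ± 11.1 in Sham and 82.0 ± 4.93 in UNx (SD, n = 3 each), a difference of 13.4 (SE 5.40, limma adjusted p = 0.193) that did not pass the threshold. Without Sham 2 the difference was 7.313. In 5 of 6 lists the stronger summit lay 1712 to 1733 bp inside the gene, and only in Sham 2 was a summit within 1 kb of the start the stronger. After the data were seen, the strongest summit within 1 kb and the strongest beyond it were placed in each list by their own -log10 q. The first, 519 to 542 bp inside the gene, was then at percentiles of 56.0, 56.3 and 75.2 in Sham and 58.3, 69.9 and 59.0 in UNx, with overlap and means of 62.5 ± 11 and 62.4 ± 6.5 (SD, n = 3 each). The inner summit was at 71.5, 48.6 and 77.9 in Sham and 78.6, 87.7 and 79.8 in UNx, with means of 66 ± 15.4 and 82.0 ± 4.94 (SD, n = 3 each). These placements were not tested.

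The strongest region of the Cyp27b1 window lies 4.8 kb upstream in an intron of Mettl1. By the promoter rule it is also the promoter region of Mettl1, with its strongest summit 1468 bp from that gene's start. It ranked 95.9, 90.6 and 92.6 in Sham and 94.4, 95.2 and 94.2 in UNx. It is the region whose sequence with 2 GGGTCA half-sites is printed above, and it differed by 1.58 points (SE 1.78, limma adjusted p = 0.675). The region 14.7 kb upstream, in an intron of Eef1akmt3, had all UNx libraries above all Sham libraries (79.3, 78.9 and 65.8 against 82.7, 82.5 and 79.8). Its difference was 7.03 (adjusted p = 0.410), and 2.597 without Sham 3. The remaining Cyp27b1 regions overlapped between operations, and the median difference over the 12 was 1.93.

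Cyp24a1, the catabolic enzyme that calcitriol induces through its receptor, held the largest difference among the tested regions of the 5 genes. The gene (ENSMUSG00000038567.5, chr2:170482708-170497145, minus strand) overlaps at its 5′ end with Pfdn4, which lies on the opposite strand. The changed region (chr2:170481620-170482615, intergenic) ends 93 bp beyond the 3′ end of Cyp24a1, with its summit 388 bp beyond it and 14.8 kb from the 5′ end. Its percentile rank was 10.02, 17.2 and 32.7 in Sham 1, 2 and 3, and 79.0, 80.0 and 70.3 in UNx 1, 2 and 3. The region was present in all 6 lists, low in the Sham lists and high in all UNx lists, with a wide gap between the operations. In the full deposited lists its places were 69601, 64078 and 52087 in Sham and 16210, 15499 and 22957 in UNx. The authors' fold enrichment was 3.73, 4.35 and 5.82 in Sham and 7.87, 7.17 and 9.25 in UNx, again without overlap. The mean rose from 20.0 ± 11.6 to 76.4 ± 5.32 (SD, n = 3 each), a difference of 56.5 percentile points (SE 8.62, limma adjusted p = 0.0142).

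The call at the 3′ side of Cyp24a1 passed the threshold in 11 of 17 alternative settings, with adjusted p-values from 0.000942 to 0.216, and the difference was above 0 in all 17. It was lost in 6: without UNx 1 (55.19 points, adjusted p = 0.0776), with ranks by fold enrichment (36.41 points, 0.216), with all deposited peaks (50.55, 0.0533), when regions in fewer than 3 lists were also tested (0.136), and after GC correction of the ranks without (56.31, 0.0762) and with the replicate block (0.146). The summits of the 6 libraries lay within 95 bp of each other. Its width ran from 163 bp in Sham 2 to 979 bp in UNx 3.

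No other tested region of Cyp24a1 passed the threshold. The promoter region (chr2:170496563-170497658), which is also that of Pfdn4, ranked 86.4, 92.9 and 90.5 in Sham and 89.1, 90.5 and 93.6 in UNx. It was high in every library, and the operations overlapped (difference 1.12, SE 2.24, limma adjusted p = 0.836). Between promoter and 3′ end the gene body was almost closed in these lists: its 3 regions were each present in 1 or 2 lists, with ranks of at most 17.9. Downstream of the gene, the regions 21.9, 27.4 and 32.2 kb from the 5′ end were open in all 6 lists and differed by 0.37, 5.85 and 3.55 points, with adjusted p-values from 0.349 to 0.949. The region 14.0 kb upstream, 67 bp from a Pfdn4 start, differed by -3.90 (adjusted p = 0.725).

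**Figure D2:**
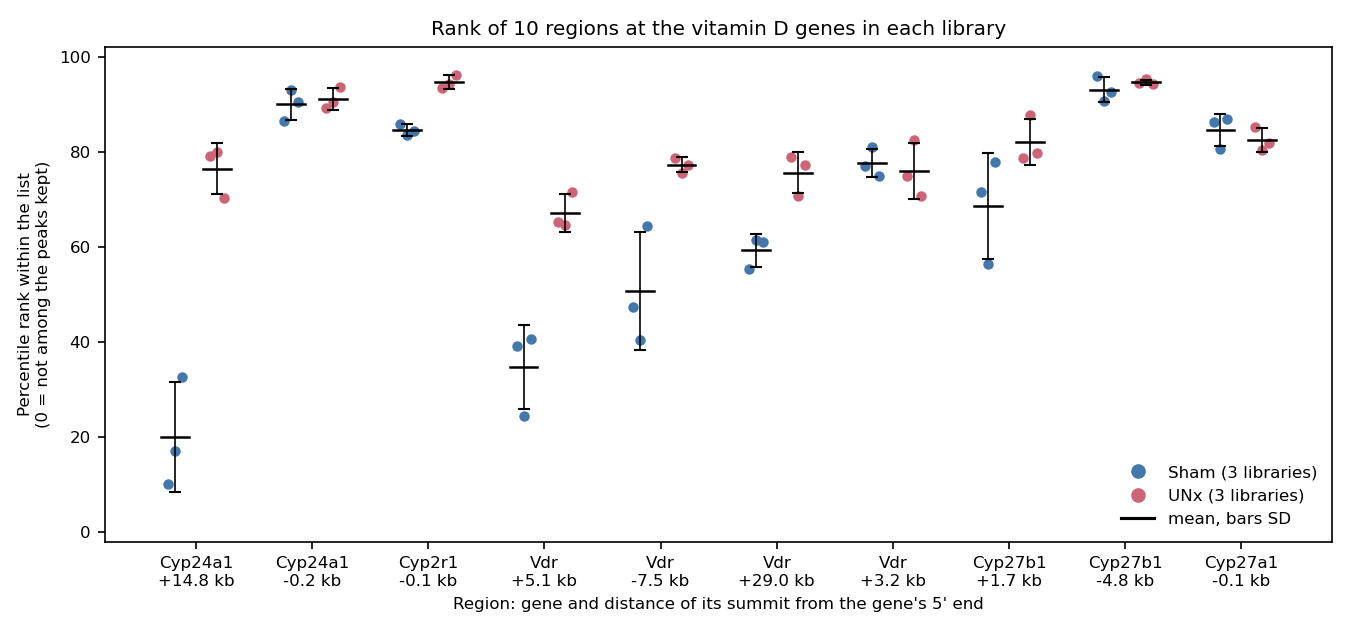
Percentile rank (y axis, 0 to 100) of 10 regions (x axis, gene and distance of the summit from the 5′ end) in each library, with the mean and SD of the 3 Sham and 3 UNx libraries. The Cyp24a1 3′ region moves from 20.0 to 76.4 and the Cyp2r1 promoter from 84.5 to 94.6, while the promoter regions of Cyp24a1, Vdr and Cyp27a1 overlap between operations.

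Vdr, the receptor, had the most regions, 24 in a gene of 56206 bp (ENSMUSG00000022479.15, chr15:97854425-97910630, minus strand), 15 of them in its body. None of its 18 tested regions passed the threshold. Its promoter region (chr15:97907244-97909000) ranked 77.0, 80.9 and 74.9 in Sham and 74.9, 82.4 and 70.8 in UNx. The operations overlapped there, with a difference of -1.61 (SE 4.45, limma adjusted p = 0.886). The region was ranked by different summits in different lists. The strongest lay at chr15:97907417 to 97907465 in Sham 1, Sham 3 and UNx 2, and at chr15:97908278 to 97908303 in Sham 2, UNx 1 and UNx 3. These summits were not ranked apart, so the difference describes the merged region only.

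Of the 9 regions of the 5 genes with all UNx libraries above all Sham libraries, 4 were at Vdr, of its 18 tested, against 12.0% of all tested regions. They were also its 4 regions with an unadjusted p under 0.05 (18.6% of all tested regions). The intronic region 5.1 kb from the 5′ end (chr15:97905294-97905752) ranked 39.1, 24.5 and 40.5 in Sham and 65.2, 64.5 and 71.6 in UNx. The upstream region (chr15:97917990-97918721, 7.5 kb before the 5′ end, intergenic) ranked 47.4, 40.4 and 64.5 in Sham and 78.8, 75.6 and 77.3 in UNx. In both, Sham 2 was the lowest library. The differences were 32.4 (SE 7.97, limma adjusted p = 0.0591) and 26.5 (SE 6.71, limma adjusted p = 0.0631), just outside the threshold. With normal scores in place of percentiles both passed (adjusted p = 0.033 and 0.0336), and with array weights the intronic one did (0.0497). With ranks by fold enrichment the intronic difference was 2.765 points (adjusted p = 0.864) and the upstream one 20.88 (0.243), and among the 20000 strongest peaks the upstream one was 11.82 (0.414).

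The intronic region with the tandem repeat had low fold enrichment in the authors' lists, 2.43 to 2.89 in Sham and 3.52 to 3.83 in UNx, against 5.68 to 9.41 and 10.1 to 12.0 for the upstream region. A second intronic region, 29.0 kb from the 5′ end (chr15:97881367-97882020), ranked 55.3, 61.5 and 61.1 in Sham and 78.8, 70.6 and 77.3 in UNx. It was higher in every UNx library, by 16.3 points (SE 5.56, limma adjusted p = 0.134), but by 3.551 with ranks by fold enrichment (adjusted p = 0.896). Its summit window holds 2 half-sites on the minus strand separated by 1 base. The fourth, 10.2 kb from the 5′ end, was absent from Sham 1 and Sham 2, ranked 6.67 in Sham 3, and reached 31.1, 9.23 and 53.7 in UNx. It was in enough lists to be tested only through its UNx lists, so its difference and its place in the counts above support nothing. It was singled out after its values were seen.

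None of the remaining Vdr regions among those of highest rank passed the test. Those 13.5 and 20.5 kb from the 5′ end differed by -1.01 and 15.2 points, the one 16.6 kb upstream by 2.95 and the one 70.3 kb from the 5′ end, in an intron of Hdac7, by 6.99. Their adjusted p-values ran from 0.337 to 0.947. Over the 18 tested Vdr regions 13 had a higher mean after UNx, with a median difference of 5.74 points, against 49.9% and -0.0112 over all tested regions.

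**Figure D3:**
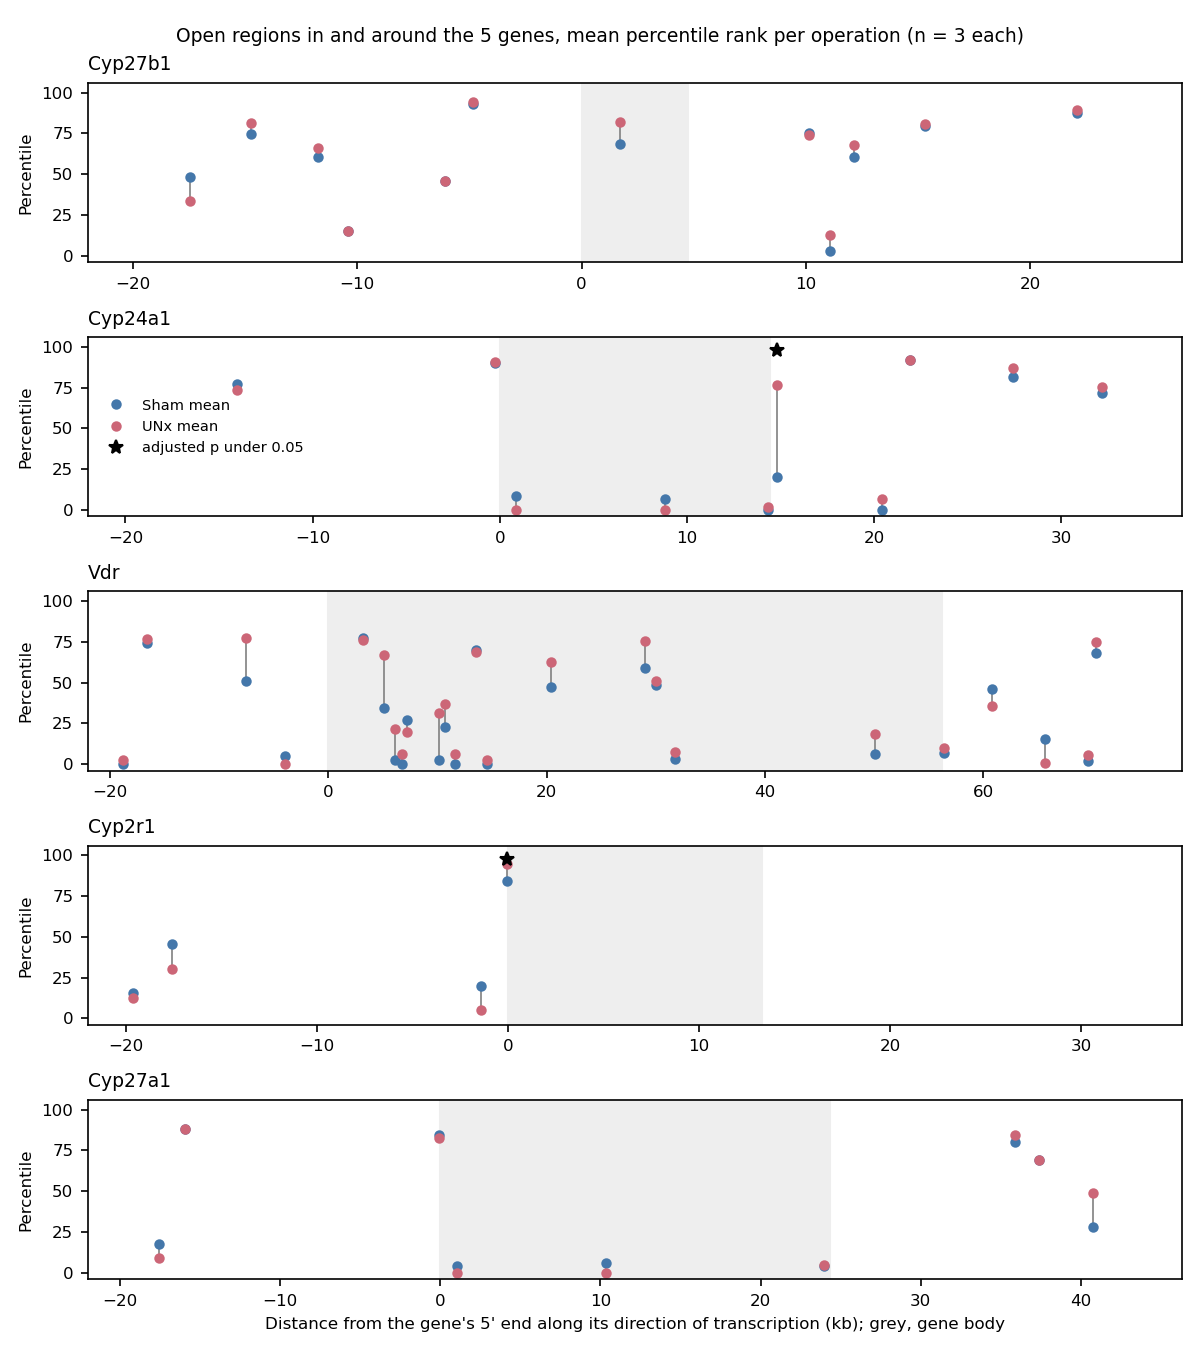
Mean percentile rank (y axis) of each region in Sham and UNx (n = 3 each) against the distance of its summit from the gene's 5′ end along the direction of transcription (x axis, kb), 1 panel per gene, with the gene body in grey and a star at the 2 regions past the threshold. The Cyp24a1 star stands just outside the gene body at its 3′ end and the Cyp2r1 star at its start, and Vdr has several UNx points above their Sham points in the first part of the gene.

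The 12 regions not tested were each present in 1 or 2 lists, with ranks of at most 17.9. Of these, 5 were in Sham lists, 6 in UNx lists and 1 in both. They include the region in the first part of Cyp24a1, 0.8 kb from its 5′ end in a coding exon, which was in Sham 2 and Sham 3 at ranks of 15.6 and 10.7. In the full deposited lists it was in all 3 Sham lists and in UNx 3, at places from 65307 to 91338. A filter on presence keeps a weak region if 1 operation is high, so the counts above describe the tested regions only.

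In mean rank over the 6 libraries the promoter regions followed the order Cyp24a1 (90.5), Cyp2r1 (89.6), Cyp27a1 (83.5), Vdr (76.8) and Cyp27b1 (75.3). The order differed between operations: after UNx Cyp2r1 (94.6) was above Cyp24a1 (91.1), and Cyp27b1 (82.0) above Vdr (76.0). In the Sham libraries alone Cyp2r1 and Cyp27a1 were at 84.5 and 84.6 and did not differ beyond their spread. Over all 6 libraries each gene in this order overlapped with its neighbours. These ranks compare peak strength within a list, not transcript levels.

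Promoters with the most similar ranks over the 6 libraries were sought for each gene by the mean absolute difference, leaving out genes within 20 kb. For Cyp2r1 these were Erc2 (0.852 points) and Jrk (1.28), for Cyp24a1 the shared promoter region of Noa1 and Polr2b (0.704), and for Cyp27a1 Svil (1.22) and Grina (1.29). For Vdr they were Rad54l2 (1.79) and Sh3gl2 (1.96), and for Cyp27b1 Ankfy1 (2.14) and Lrrc71 (2.51). The number of the 13960 genes with a promoter region within 5 points was 3600 for Cyp24a1, 1542 for Cyp27a1, 1286 for Cyp2r1, 413 for Vdr and 40 for Cyp27b1. Such close ranks were thus most common for Cyp24a1 and least common for Cyp27b1.

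The wider pathway was read from the promoter regions of 37 genes, of which 32 were tested. None passed the threshold (0 of 32 by limma, against 0.418% of 12192 tested promoter regions), and 5 had an unadjusted p under 0.05 (13.6% of all), all of them lower after UNx. Means were higher in 11 and lower in 21, with a median difference of -1.34 points against -0.183 over all tested promoters. The operations did not overlap for 7 promoters (20.3% of all). By other processing 1 promoter of the list passed in each of 2 settings. With an overlap of at least 50%, which changes how intervals are joined, it was Ncoa1, the gene of a coactivator (68.0 points, limma adjusted p = 0.0327). In the main setting Ncoa1 overlapped between operations (means 70.2 and 71.1, difference 0.964, adjusted p = 0.953).

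The uptake and transport genes (Lrp2, Cubn, Amn, Dab2 and Gc) had lower mean ranks in 5 of 5 promoters. The median difference was -6.07, and 0 of the 5 passed the threshold. Over all tested promoters 47.3% had higher means. The endocytic receptor genes Lrp2 (megalin) and Cubn (cubilin) had means of 96.2 and 90.8 in Sham and 92.8 and 84.2 in UNx, and their limma adjusted p-values were 0.260 and 0.214. For both, every UNx library was below every Sham library. Among the 6 genes of hormonal control, 5 were tested and 4 of these had higher means. Pth1r, the receptor of parathyroid hormone, had means of 75.1 and 81.6 (adjusted p = 0.447), and Kl, the co-receptor of FGF23, had 84.2 and 87.5 (adjusted p = 0.589). No promoter region was found for Casr, the calcium-sensing receptor.

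The receptor's partners and cofactors had 8 lower and 3 higher means of 11. Rxra, a dimer partner of Vdr, overlapped between operations (means 66.5 and 64.1, adjusted p = 0.872). The electron donors of the mitochondrial and microsomal P450 enzymes, Fdx1, Fdxr and Por, stood at mean ranks of 97.7 to 99.1 over the 6 libraries, and the smallest p among them belonged to Fdxr (difference -0.98, adjusted p = 0.736).

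Among calcium and phosphate transport genes 6 of 8 promoters were tested, 3 with higher and 3 with lower means. The sodium-phosphate cotransporter gene Slc34a3 had means of 90.5 and 93.4 (difference 2.97, adjusted p = 0.435). No promoter region was found for Trpv6 and Slc8a1, nor for Cyp3a11 and Cyp11a1 among the other enzymes. The sterol synthesis gene Sc5d had means of 97.4 and 94.9 (difference -2.54, adjusted p = 0.356).

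**Figure D4:**
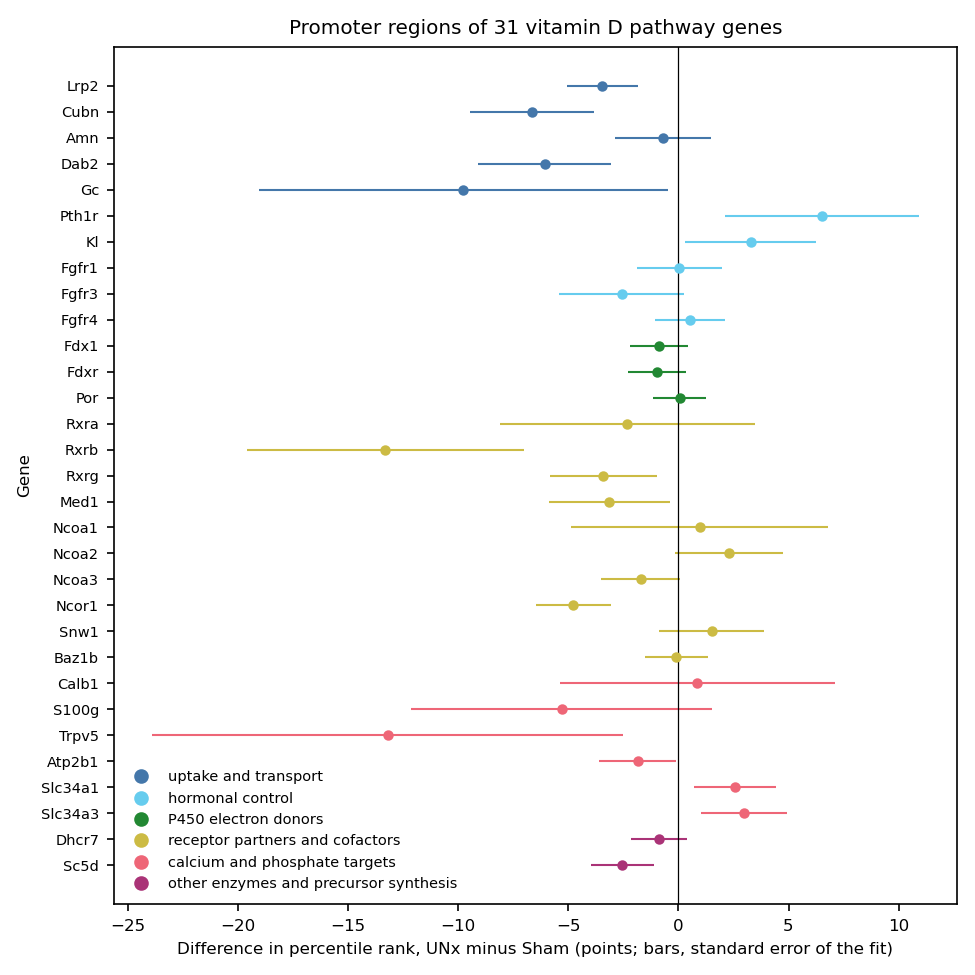
Difference in percentile rank, UNx minus Sham (x axis, points, with the standard error of the fit), of 31 promoter regions of the vitamin D pathway (y axis, genes coloured by role). The 5 uptake and transport genes lie left of 0, from -0.692 for Amn to -9.77 for Gc, and none of the 31 shown passed the threshold.

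Markers of the tissue and of other cell types were read the same way. All 8 S1 markers had a promoter region in every library, with summed ranks of 695 to 696 in Sham and 675 to 695 in UNx. Summed ranks of later segments were lower after UNx without overlap: 322 to 334 against 273 to 302 for 5 of 8 genes of other nephron segments (Slc12a3, Aqp2 and Atp6v1g3 at 0), and 151 to 189 against 138 to 150 for 3 of 4 S2 and S3 genes (Slc7a13 at 0). Not every marker followed its sum: Umod (means 65.4 and 69.4) and Calb1 (65.1 and 66) had higher means after UNx, and these as well as Trpv5, Cyp7b1 and Slc5a10 overlapped between operations. The lowest limma adjusted p among them and the other markers of later segments was 0.131, at Slc12a1 (means 56.9 and 30.2). Endothelial sums were 16.0 to 28.5 in Sham and 0 in UNx. They rest on weak peaks: Pecam1 was in 1 list, Kdr in 2 and Flt1 in 3, with ranks of at most 20.3. Of these only Flt1 was tested (limma adjusted p = 0.403). Sums of stroma were 68.9 to 69.4 and 54.1 to 66.1 (Pdgfrb at 0), and those of podocytes 15.5 to 37.6 and 0 to 47.0. Ptprc and Cd68 of immune cells were at 0 in all libraries. The sums of later segments, endothelium and stroma were lower in the libraries where the Cyp24a1 3′ region and the Cyp2r1 promoter ranked higher. The S1 sums were likewise no higher there (675 to 695 in UNx against 695 to 696 in Sham), with 5 S1 markers lower in mean and 3 higher. The part of these sums in those results was not tested. Libraries also differed in list size (77355 in Sham 2 to 100999 in UNx 2) and in the median -log10 q of their peaks (12.1 in Sham 2 to 26.5 in UNx 3). Leaving out 1 library lowered the number of called regions in the whole data from 589 to between 31 (without UNx 1) and 382 (without UNx 2).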

How the data were processed

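The 6 ATAC-seq libraries (3 Sham, 3 UNx, grouped by their labels) each came with 1 narrowPeak list, so peaks were called per library. Per the submitters' processing notes, cutadapt 3.4, Bowtie, SAMtools, Picard and MACS2 2.2.7.1 were used with the build mm10; the filter applied to the lists is not given in the sources used here. The deposited lists give, per summit, a -log10 p, a -log10 q, a ratio named fold enrichment and a score for display, which are the authors' values and were used only within a list. The lists hold no read counts, so sequencing depth is unknown and no interval that needs it is given.

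Autosomes and sex chromosomes were kept, and an interval listed with several summits was 1 peak, placed at the strongest. Each list was cut to its 77355 strongest peaks by -log10 q (the size of the shortest) and ranked in percentiles. Overlap of 1 bp or more joined intervals across lists, which gave 99359 regions, each ranked in a list by its best peak there. Regions in at least 3 lists were fitted with limma 3.58.1 in R 4.3.3 (trend and robust, two-sided, Benjamini-Hochberg over 74781 regions, threshold 0.05), a step also tested on simulated ranks. Genes were those of GENCODE M21 on GRCm38, and a promoter region was the highest-ranked region with a summit within 1 kb of a coding start.

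Named in the text were each member's promoter region, up to 6 other regions of highest mean rank, called or operation-specific regions and the 3 of smallest p, in the pathway list the smallest p per role with Lrp2, Cubn, Rxra, Kl and Pth1r, and the 2 most similar promoters. The members and lists were chosen with earlier results of these data known. The half-site search and the separate placing of the Cyp27b1 summits were added after the data were seen. A promoter that the rule selects is not reported here by name, but counts over the pathway list include it.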

Additional observations from a re-analysis of the deposited data

How the results depend on the processing

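The 589 called regions became 22 with all deposited peaks, 2 with the 20000 strongest, 3 with ranks by fold enrichment, 1583 with normal scores, 180 at a -log10 q of 5 or more, 2 without the filter on lists, 1452 with array weights, 2 with GC-corrected ranks and 143 with an overlap of at least 50%, and 31 to 382 with 1 library left out. In the same settings the 2 called regions of the 5 genes became 0, 0, 0, 4, 1, 0, 3, 0 and 1, with 0 to 1 when a library was left out and 1 without trend or robust variance. Windows of 5 and 50 kb gave 2 each. Of 559 comparisons of 32 single regions with an alternative setting, 483 kept direction and side of the threshold, 22 lost the call, 3 gained one and 51, in 16 regions, changed sign. No region that changed sign was called. The cause was not tested. The difference at the Cyp2r1 promoter was largest in points with the 20000 strongest peaks (38.88, limma adjusted p = 0.101). Its places in the lists are the same there, and each place spans more points in a shorter list. The larger value is thus no larger shift in place.

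The replicate numbers of the labels are shared by both operations, but same-numbered libraries did not deviate together (r = 0.00819, -0.1 and -0.0496 over 74781 regions). The labels do not say whether same-numbered libraries were handled as pairs, and these values cannot show it. With the replicate block 55 regions were called, 1 of them of the 5 genes, the Cyp24a1 3′ region (adjusted p = 0.0406), and the Cyp2r1 promoter had an adjusted p of 0.0767. The replicate block with GC-corrected ranks called 0 regions, 0 of them of the 5 genes, and gave 8.949 points (adjusted p = 0.307) at the Cyp2r1 promoter and 56.31 (0.146) at the Cyp24a1 3′ region.

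The difference in peaks per list, -1.67, was 2.67 with all deposited peaks, 2.67 with the 20000 strongest and 4.67 at a -log10 q of 5 or more. The exact permutation p-values were 0.5, 0.2 and 0.6. In the first and last of these settings the lists were not cut to equal length, so their counts also reflect list size. The count of regions found in all lists of only one operation, 0, became 1 with all deposited peaks, 1 with the 20000 strongest and 0 to 2 with a library left out. Of the pathway promoters 1 was called with array weights and 1 with an overlap of at least 50%. The Cyp24a1 3′ region could not be followed among the 20000 strongest peaks.

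Signs also turned at single regions that were not called. With fold enrichment the Cyp24a1 regions at 21.9 and 32.2 kb and its promoter gave -2.543, -0.368 and -8.283, the Cyp27b1 regions at 10.1 and 22.1 kb 0.1513 and -0.1026, the Cyp27a1 regions 24 kb down and 15.9 kb up -2.672 and 1.653, and the Vdr region 16.6 kb up -3.656. With all deposited peaks the Cyp27a1 regions at 24 and 15.9 kb gave -0.8819 and 0.9642, Cyp27b1 at 10.1 kb 0.5055, Cyp2r1 at 19.6 kb 3.937 and Vdr at 13.5 kb 1.676. At a -log10 q of 5 or more the Cyp27a1 promoter and its region at 15.9 kb gave 0.2271 and 1.53, Cyp27b1 at 10.1 kb 1.359, Cyp2r1 at 19.6 kb 0.8041, and Vdr at 13.5 kb and its promoter 2.911 and 0.5685. Cyp27a1 at 24 kb gave -0.09058 with normal scores, -0.3704 with array weights, -0.5497 with GC-corrected ranks and -0.5497 with these and the block. Array weights gave -0.2798 for Cyp27a1 at 37.4 kb and 1.093 for Cyp27b1 at 10.1 kb, and normal scores 0.00725 for Cyp27a1 at 15.9 kb. An overlap of 50% gave -9.845 for Vdr at 20.5 kb and the 20000 strongest peaks -4.39 for Vdr at 70.3 kb.

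With 1 library left out the difference ran from -1.143 to 1.698 for Cyp24a1 at 21.9 kb, -0.6315 to 2.576 for its promoter, -1.196 to 3.132, -1.952 to 3.117 and -2.445 to 1.838 for Cyp27a1 at 24, 37.4 and 15.9 kb, and -4.463 to 1.506, -0.7035 to 3.886 and -1.352 to 5.115 for Cyp27b1 at 10.1, 15.3 and 22.1 kb. It ran from -13.19 to 1.82 for Cyp2r1 at 19.6 kb, -4.112 to 3.073, -4.793 to 1.013, -3.894 to 12.75 and -1.816 to 8.637 for Vdr at 13.5 kb, its promoter, 70.3 kb and 16.6 kb.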

Other observations

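With longer or with shorter lists 1 region at Vdr was in all UNx lists and no Sham list (1 of 70 and 1 of 23 regions of the 5 genes). Both were picked by this pattern, and the share over all regions is not given for these settings. With all deposited peaks a region 18.8 kb upstream of Vdr (chr15:97929338-97929645) was absent from all 3 Sham lists and ranked 23.6, 6.83 and 16.5 in UNx 1, 2 and 3. Among the 20000 strongest peaks the region 7.5 kb upstream was absent from all 3 Sham lists and ranked 17.8, 5.58 and 12.1 in UNx. It is the upstream region already described. Its places in the full lists were 27495 to 46096 in Sham and 16436 to 18885 in UNx, so the cut falls between them. Neither difference was tested in the form of presence and absence.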
